A study of Mus musculus with 6 samples.

Results

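The genes of the respiratory chain and of ATP synthase that could be named on these arrays were compared between wild-type mouse embryonic fibroblasts and fibroblasts lacking cyclophilin D (CypD), the mitochondrial prolyl isomerase encoded by Ppif. A gene belonged to the set if its probe carried 1 gene symbol and that symbol began with Nduf, Sdh followed by a single letter, Uqcr, Cox followed by a digit, or Atp5, or was Cyc1 or Cycs. This gave 61 genes, measured by 70 probes, of 7606 genes with a name. Each gene was represented by its probe of highest mean intensity. RNA was measured on 6 Illumina bead arrays, 3 from wild-type (WT) and 3 from CypD knockout (KO) cells, each group with the replicate letters A, B and C. Both groups were cultures started from E13.5 embryos of C57BL/6 background, and no treatment is named. The labels do not describe the knockout allele or passage number, nor do they say whether the letters stand for separate embryos or cultures, so a p-value reflects array-to-array spread alone, and that spread may be technical. By its title, the series asks about extramitochondrial signaling by cyclophilin D, in progression of the cell cycle and in movement toward chemokines.

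The respiratory chain passes electrons from NADH through complex I, or from succinate through complex II, to ubiquinone, then through complex III and cytochrome c to complex IV, where oxygen is reduced. Complexes I, III and IV pump protons across the inner mitochondrial membrane, and ATP synthase uses the resulting gradient to make ATP. Most subunits are encoded in the nucleus, a smaller number in mitochondrial DNA, and dedicated assembly factors put the complexes together. Cyclophilin D resides in the mitochondrial matrix, binds ATP synthase and promotes opening of the permeability transition pore.

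Of the 61 genes, 18 passed the test, 6 higher and 12 lower in the knockout, and 43 did not. The 18 were 29.5% of the set, below the 43.6% of all named genes tested that passed. Cox20, a chaperone in complex IV assembly, rose most, 1.69-fold. Ndufa6, a complex I subunit, fell most, 1.56-fold, and Cyc1, the cytochrome c1 of complex III, fell 1.41-fold. The differences went both ways within complex I, complex IV assembly and ATP synthase, and no called gene reached 2-fold.

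RefSeq promoter sequences, 250 bases before to 50 bases after the annotated start in GRCm38.p6, are shown for the 2 genes of lowest p-value in each direction that had an entry, because these genes differed most clearly between the groups. Capitals mark matches to 4 short motifs named for regulators of nuclear-encoded respiratory genes, searched on both strands: the NRF1 core GCGCATGC, the ETS core CCGGAAG, the YY1 core AAGATGGC and the estrogen-related receptor (ERR) element AAGGTCA. The ETS and YY1 cores share the letters AAG, and the NRF1 core can overlap its own reverse. Cox20 and Ndufa3 were higher in the knockout, Ndufa6 and Cox14 lower.
Cox20, chr1:178318903-178319202, plus strand: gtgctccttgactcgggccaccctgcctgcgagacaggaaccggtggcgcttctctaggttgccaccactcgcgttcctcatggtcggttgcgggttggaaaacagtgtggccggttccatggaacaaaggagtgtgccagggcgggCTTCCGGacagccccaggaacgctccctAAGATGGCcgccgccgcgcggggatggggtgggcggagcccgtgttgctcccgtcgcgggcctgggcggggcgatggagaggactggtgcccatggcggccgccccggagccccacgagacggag
Ndufa3, chr7:3617123-3617422, plus strand: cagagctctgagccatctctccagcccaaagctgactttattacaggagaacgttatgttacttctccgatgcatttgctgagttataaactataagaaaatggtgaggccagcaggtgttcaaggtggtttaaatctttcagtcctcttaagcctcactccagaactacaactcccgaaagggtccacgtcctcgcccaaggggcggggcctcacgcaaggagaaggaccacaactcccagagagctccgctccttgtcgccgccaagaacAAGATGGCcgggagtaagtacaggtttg
Ndufa6, chr15:82354242-82354541, minus strand: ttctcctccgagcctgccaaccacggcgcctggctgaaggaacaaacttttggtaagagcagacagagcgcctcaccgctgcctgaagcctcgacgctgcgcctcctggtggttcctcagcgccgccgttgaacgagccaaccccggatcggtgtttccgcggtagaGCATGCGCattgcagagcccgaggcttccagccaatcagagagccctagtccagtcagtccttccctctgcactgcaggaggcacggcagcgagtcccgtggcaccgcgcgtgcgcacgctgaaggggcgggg
Cox14, chr15:99725368-99725667, plus strand: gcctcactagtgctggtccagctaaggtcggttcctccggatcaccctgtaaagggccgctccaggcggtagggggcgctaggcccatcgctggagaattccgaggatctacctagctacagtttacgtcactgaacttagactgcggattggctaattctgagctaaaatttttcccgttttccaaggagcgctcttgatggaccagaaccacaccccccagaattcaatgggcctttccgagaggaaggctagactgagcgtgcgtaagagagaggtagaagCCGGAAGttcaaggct

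The Cox20 window held 1 ETS core, on the reverse strand, and 1 YY1 core. The Ndufa3 window held 1 YY1 core close to its 3′ end, Ndufa6 held 1 NRF1 core on the reverse strand, and Cox14 held 1 ETS core close to its 3′ end. Both matches close to the 3′ end lay after the annotated start. Promoter entries were found for 50 of the 61 genes, 54 entries in all. The NRF1 core was in 9 of these 54 (16.7%), against 2.71% of all 32851 mouse promoter windows of the same length. The ETS core was in 15 (27.8%, against 8.86% of all), the YY1 core in 8 (14.8%, against 2.75%) and the ERR element in 5 (9.26%, against 4.72%). Any of the 4 was in 27 entries (50%, against 17.6%), and matches overlapped each other in 5 entries. By call, the YY1 core was in 3 of 6 entries of genes that rose, in 0 of 5 of genes that fell and in 5 of 43 of the rest. In the same order, the ETS core was in 3 of 6, 1 of 5 and 11 of 43, the NRF1 core in 1 of 6, 1 of 5 and 7 of 43, and the ERR element in 1 of 6, 0 of 5 and 4 of 43. Of the 12 genes that fell, 7 had no promoter entry. A match describes letters in the window and is not evidence of binding, and a window without a match says only that these letters are not in it.

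Median signals of the arrays lay between 223 and 251, and log2 intensities over all probes correlated at 0.992 or more within groups and at 0.986 or less between them. Ppif, the targeted gene, was checked first: its log2 intensity was 13.57, 13.70 and 13.62 in WT A, B and C and 12.25, 12.35 and 12.18 in KO A, B and C. It fell by 1.37 ± 0.066 on the log2 scale (limma with Benjamini-Hochberg adjustment over all probes, adjusted p = 2.96e-09), with a bright remaining signal. Where the probe lies relative to the deleted part is not given, so it is only a partial check of the labels. None of the 61 genes lies on chromosome 14, which carries Ppif. All members on chromosome 15 (Ndufa6, Ndufb9, Cyc1, Cox14 and Cox6c) and on chromosome 18 (Atp5a1 and Ndufa2) were called lower. The remaining falls lay on other chromosomes. Over all chromosomes, 21.8% of named genes were called lower. The shares of named genes on chromosomes 15 and 18 alone are not given here, so the grouping cannot be read as particular to this set. It was seen after the values were known, and it was not tested. Of the fibroblast markers, 8 of 10 had a name and 3 rose and 3 fell. Col1a1, a main collagen of fibroblasts, was at the 97.8th percentile of probe intensity and Fn1, fibronectin, at the 96.5th, whereas the Vim probe was at the 66.5th. The summed intensity of the 8 was 36275 to 37400 in WT and 27672 to 32163 in KO, a sum in which bright probes weigh most. Pdgfra rose 2.76-fold, Col3a1 2.19-fold and Pdgfrb 1.33-fold. S100a4 fell 3.08-fold, Col1a1 1.55-fold and Col1a2 1.28-fold, so the called markers went both ways. Named leukocyte markers (2 of 6) included 0 that passed, with 863.7 to 1066 summed in WT and 878.6 to 902.4 in KO; endothelial markers had no named probe. Both named adipocyte markers of 6 rose (1184 to 1467 against 1939 to 2026), all 3 named neural markers of 6 fell (5581 to 6250 against 1764 to 1870), and 1 of 2 named epithelial markers (542.2 to 621.8 against 440.6 to 497.1) and 1 of 2 named muscle markers (577.2 to 705.2 against 583.7 to 635.1) fell. These are bulk samples, in which fewer cells of a type and less RNA per cell cannot be told apart, and the part of such cells in the results below was not tested.

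The 18 called genes are 29.5% of the set, beside a background of 43.6% over the 7605 named genes tested. Genes that rose made up 9.84% of the set against a background of 21.8%, and those that fell 19.7% against 21.8%. Over all probes kept, named or not, 20% passed. Names were given only for probes of the deposited processed table, whose brightest and dimmest arrays differed by a ratio of 1.2 or more for every probe, so the set is read beside the named genes. At an unadjusted p under 0.05 there were 28 of the 61, beside 58.2% of named genes. The 3 WT and 3 KO values did not overlap in 25 of the genes (41%), against 56.1% of named genes, and the groups overlapped for no called gene. Of named genes, 6.07% were called and changed at least 2-fold, against 0 of the 61. All these shares of the set were below those of the named genes, though for falls only slightly (19.7% against 21.8%). The 29.5% called lay above the 20% over all probes kept. These comparisons are a description and not a test of the list.

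The sizes of the differences were small as well. Called genes changed between 1.14-fold and 1.69-fold, and the median absolute log2 difference was 0.159 over the set and 0.236 over all named genes. An absolute difference of at least 0.25 was found for 13 genes (21.3%, against 47.3% of the other named genes), at least 0.5 for 2 (3.28% against 18.2%) and at least 1 for 0 (against 6.12%). The largest difference of a gene that did not pass was 0.206, so the test separated the set near a log2 difference of 0.2. The standard errors behind these values ran from 0.0528 to 0.158, with a median of 0.0786. The median signed difference was -0.00117, with 30 genes above 0 and 31 below, and 0.00821 over all named genes. The probes of the set were bright, at a median intensity percentile of 93.8 against 82 for named genes and at the 57.9th at the lowest. Among the 39 genes above the 90th percentile, 15 (38.5%) were called, beside 53.7% of named genes that bright, whose median absolute difference was 0.224.

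**Figure D1:**
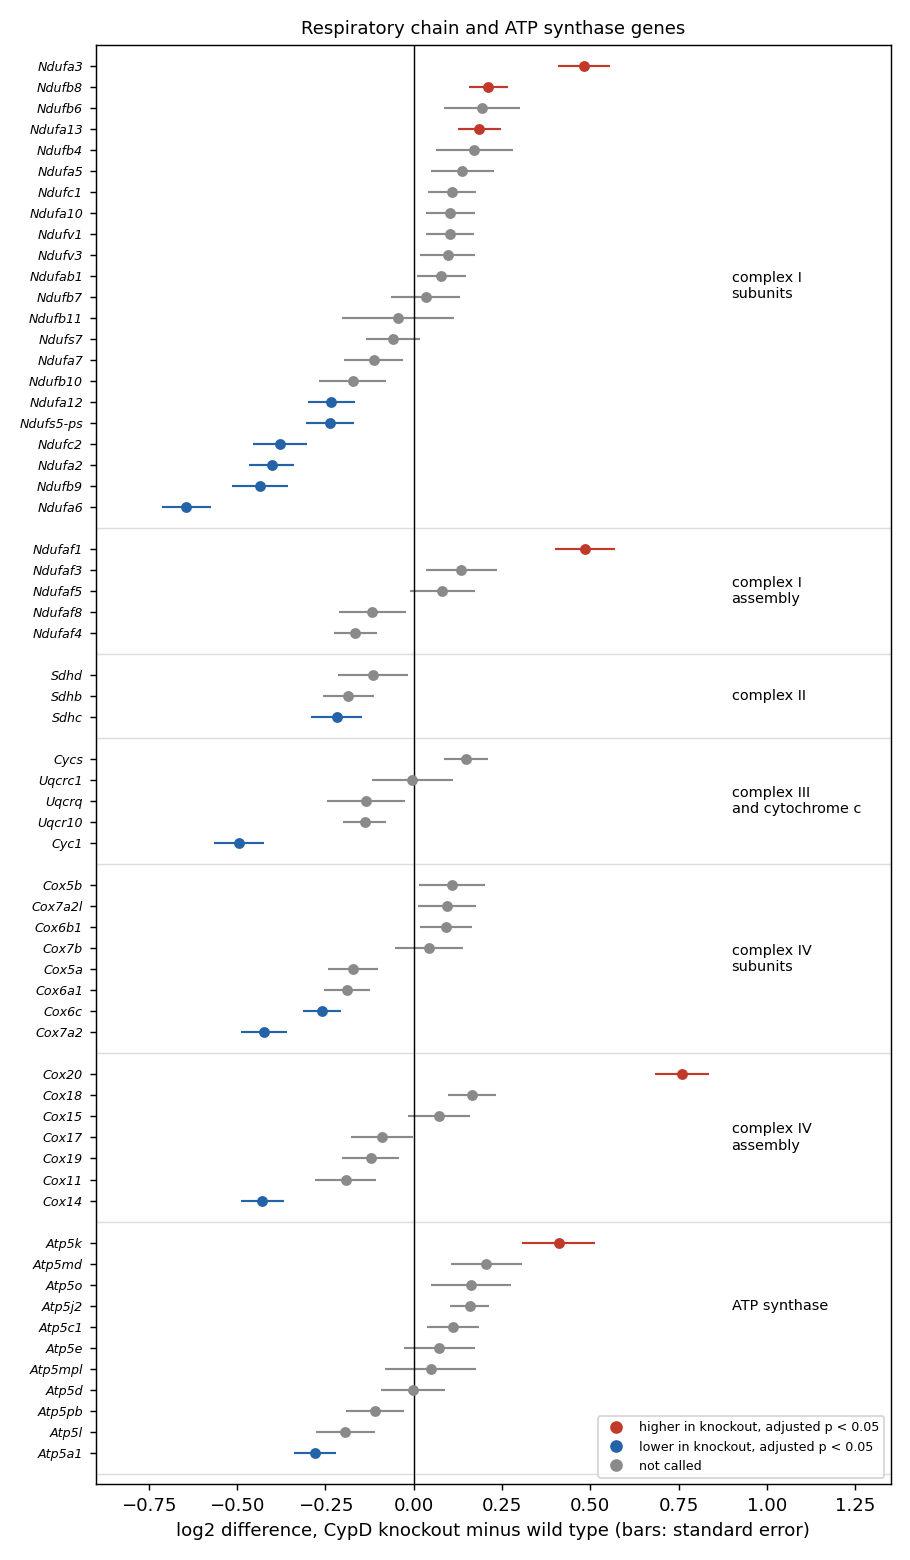
Log2 difference of each of the 61 genes, CypD knockout minus wild type, on the horizontal axis, grouped by complex; points are limma estimates from 3 arrays a group, bars are standard errors, red and blue mark genes called higher and lower, grey those not called. Cox20 lies farthest right at 0.76 and Ndufa6 farthest left at -0.64, and the 3 complex II genes all lie left of 0.

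**Figure D2:**
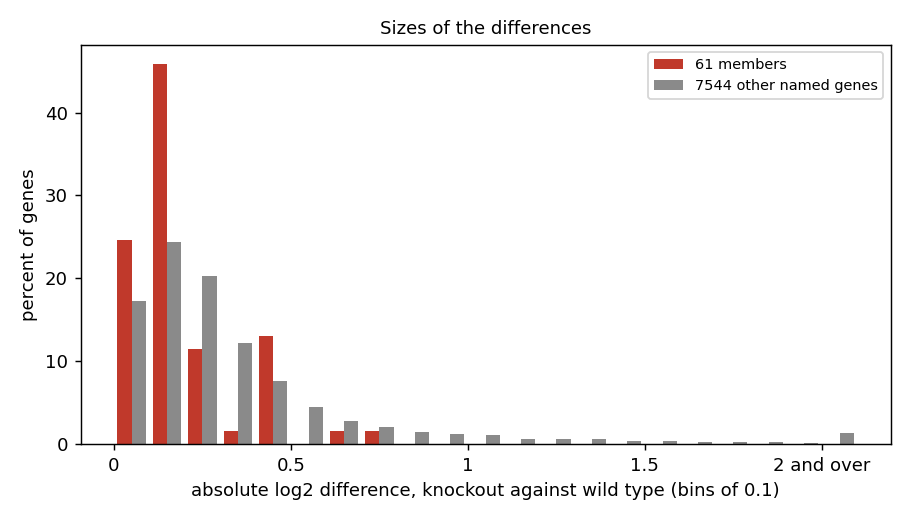
Share of genes, in percent, by absolute log2 difference in bins of 0.1, for the 61 genes and for the other named genes, with all differences of 2 and over in the last bin. Of the 61 genes, 21.3% reached 0.25 and 3.28% reached 0.5, against 47.3% and 18.2% of the other named genes.

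Complex I, the NADH dehydrogenase, was represented by 22 symbols, of which 3 rose, 6 fell and 13 did not pass, with a median log2 difference of 0.06. The enzyme is L-shaped: its peripheral arm in the matrix takes electrons from NADH and hands them to ubiquinone, and its membrane arm pumps protons. In the peripheral arm, 3 of the 8 genes measured fell, 0 rose and the median was -0.09. In the membrane arm, 3 of 12 rose and 2 fell, with a median of 0.11. For these counts and those of each complex and list below, the background was 21.8% of named genes higher and 21.8% lower. The arms were not compared by a test. Ndufab1, the acyl carrier protein, is found in both arms and was counted in neither. The assignment to arms follows general knowledge of the enzyme and was made after the values had been seen.

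Ndufa6, a peripheral-arm subunit of the LYR-motif family, had the largest fall. Its log2 intensity was 13.499, 13.43 and 13.61 in WT and 12.85, 12.98 and 12.78 in KO, here and below in the order A, B, C. All knockout arrays were lower than all wild-type arrays, with a difference of -0.64 ± 0.069 (KO minus WT, log2 ± SE, as throughout; adjusted p = 1.02e-05). Ndufa2, a peripheral-arm subunit with a thioredoxin-like fold, stood at 14.19, 14.23 and 14.43 in WT and 13.92, 13.85 and 13.88 in KO, a difference of -0.40 ± 0.065 (adjusted p = 0.000435). The wild-type arrays were again all above the knockout arrays, and WT C was the highest. Ndufa12, an accessory subunit of the same arm, was at 13.08, 13.14 and 13.30 in WT and at 12.95, 12.95 and 12.93 in KO. The groups lay close without overlapping, with a difference of -0.23 ± 0.066 (adjusted p = 0.0231) that did not pass without WT C, KO A, KO B or KO C (adjusted p 0.0574 to 0.078).

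In the membrane arm, Ndufa3, a small subunit near the junction of the arms, rose most. It gave 11.97, 11.84 and 12.08 in WT and 12.40, 12.49 and 12.45 in KO, a difference of 0.48 ± 0.073 or 1.40-fold (adjusted p = 0.000268). Its second probe rose too, by 0.45 (adjusted p = 0.000466). Ndufb8, an accessory subunit of the distal membrane arm, was among the brightest probes of the set at 14.92, 14.80 and 14.96 in WT and 15.17, 15.09 and 15.06 in KO. Its rise was 0.21 ± 0.054 (adjusted p = 0.0131), and the second, dimmer probe differed by 0.24 and just missed the threshold (adjusted p = 0.0531). The call was lost without WT B (adjusted p = 0.0577) or KO A (adjusted p = 0.0682), and median scaling reduced the difference to 0.11. Ndufa13, also known as GRIM-19, was at 15.37, 15.11 and 15.27 in WT and at 15.41, 15.43 and 15.46 in KO, with 1 wild-type array, B, clearly below the other arrays. Its rise of 0.19 ± 0.060 (adjusted p = 0.0426) was the smallest difference to pass. Without WT B it was 0.12 (adjusted p = 0.186), with median scaling also 0.12 (adjusted p = 0.255), and without any 1 of the knockout arrays it did not pass either (adjusted p 0.0753 to 0.136).

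The membrane-arm genes that fell were Ndufb9 and Ndufc2. Ndufb9, a further LYR-motif subunit, gave 11.38, 11.39 and 11.59 in WT and 11.07, 11.00 and 10.97 in KO, a fall of 0.44 ± 0.079 (adjusted p = 0.00115). Ndufc2 was at 11.78, 11.99 and 11.97 in WT and 11.49, 11.60 and 11.52 in KO, differing by -0.38 ± 0.076 (adjusted p = 0.00248). Its other probe was dim and gave -0.08 (adjusted p = 0.797), and the mean of both probes gave -0.23 (adjusted p = 0.158), so the call rests on the brighter probe. Ndufs5-ps, annotated as a pseudogene of the Ndufs5 subunit, fell from 12.96, 12.84 and 12.91 to 12.76, 12.56 and 12.67, a difference of -0.24 ± 0.068 (adjusted p = 0.0237). A probe for a pseudogene may also detect the parent transcript, so the source of this signal is uncertain. The call was lost without WT A, KO B or KO C (adjusted p 0.0643 to 0.119).

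The remaining 13 complex I symbols lay between -0.17 and 0.19. Ndufv1, the core subunit that binds NADH and flavin, was at 14.31, 14.21 and 14.50 in WT and 14.39, 14.50 and 14.43 in KO, with overlapping groups and a difference of 0.10 ± 0.069 (adjusted p = 0.365); without WT C it was 0.18 and passed (adjusted p = 0.0402). Ndufs7, the core subunit that carries the last iron-sulfur cluster before ubiquinone, was at 13.72, 13.72 and 14.03 in WT and 13.75, 13.79 and 13.76 in KO, a difference of -0.06 ± 0.077 (adjusted p = 0.698). These were the only nuclear-encoded core subunits of complex I with a named probe. Ndufb10 did not overlap between groups but did not pass (-0.17 ± 0.095, adjusted p = 0.258). The other accessory subunits above 0 were Ndufb6, Ndufb4, Ndufa5, Ndufc1, Ndufa10, Ndufv3, Ndufab1 and Ndufb7, and those below 0 were Ndufa7 and Ndufb11. Of these, Ndufb4 passed without WT C (0.30, adjusted p = 0.0261).

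Complex I assembly factors gave 1 rise and 4 genes that did not pass, with a median of 0.08. Ndufaf1, which helps to build the membrane arm, was at 11.25, 11.18 and 11.49 in WT and 11.84, 11.74 and 11.80 in KO. The knockout arrays were tightly grouped above every wild-type array, with a rise of 0.48 ± 0.084, 1.40-fold (adjusted p = 0.000815). Ndufaf4, which acts early with Ndufaf3 on the part that binds ubiquinone, gave 13.09, 13.22 and 13.13 in WT and 13.01, 13.01 and 12.94 in KO (-0.16 ± 0.061, adjusted p = 0.0781). Its groups did not overlap, and median scaling brought it past the threshold (-0.24, adjusted p = 0.0141). Ndufaf3 itself was at 8.35, 8.55 and 8.59 in WT and 8.62, 8.55 and 8.72 in KO (0.13 ± 0.10, adjusted p = 0.431). Ndufaf5, an enzyme that hydroxylates Ndufs7, gave 9.97, 10.04 and 10.28 in WT and 10.15, 10.21 and 10.17 in KO (0.08 ± 0.092, adjusted p = 0.635). Ndufaf8, its partner, gave 9.27, 9.52 and 9.43 in WT and 9.34, 9.35 and 9.18 in KO (-0.12 ± 0.095, adjusted p = 0.481). The groups overlapped for all 3 of these.

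Complex II, succinate dehydrogenase, also works in the citrate cycle, and 3 of its subunits were measured; all lay below 0, in every alternative setting too, and 1 passed. Sdhc, a membrane anchor, was at 13.06, 12.82 and 13.04 in WT and 12.80, 12.78 and 12.70 in KO. Every wild-type array was higher, but WT B only slightly, and the difference of -0.22 ± 0.072 fell on the threshold (adjusted p = 0.04998). It passed in 7 of 18 alternative settings and was lost without WT A, WT C or any 1 of the knockout arrays (adjusted p 0.0794 to 0.19). Sdhb, the iron-sulfur subunit, gave 12.07, 12.02 and 12.18 in WT and 11.99, 11.91 and 11.82 in KO, without overlap (-0.18 ± 0.072, adjusted p = 0.0972). Sdhd, the other anchor, gave 11.35, 11.36 and 11.59 in WT and 11.11, 11.48 and 11.36 in KO, with overlap (-0.12 ± 0.099, adjusted p = 0.510).

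For complex III and cytochrome c, 1 of 5 genes fell and 4 did not pass, with a median of -0.13. Cyc1, the heme-bearing subunit that passes electrons to cytochrome c, was at 13.65, 13.62 and 13.81 in WT and 13.08, 13.28 and 13.24 in KO. The gap between the groups was wider than the spread within them, and the gene fell by 0.49 ± 0.071 (adjusted p = 0.000169). Cycs, cytochrome c itself, gave 14.05, 14.02 and 13.95 in WT and 14.18, 14.04 and 14.26 in KO on its brighter probe, a difference of 0.15 ± 0.063 (adjusted p = 0.129). Its groups overlapped by a single knockout array, B. The dimmer Cycs probe gave 0.33 and passed (adjusted p = 0.0154), as did the mean of both (0.24, adjusted p = 0.0213), and the brighter probe passed without KO B (0.21, adjusted p = 0.0449). So the carrier and its docking subunit had differences of opposite sign, with the call for Cycs depending on the probe. Uqcr10, a small subunit beside Cyc1, was at 15.16, 14.97 and 15.19 in WT and 14.96, 14.92 and 15.02 in KO (-0.14 ± 0.061, adjusted p = 0.145), and passed without WT B (-0.21, adjusted p = 0.02). Uqcrq, another small subunit, gave 10.08, 9.86 and 10.13 in WT and 9.81, 9.74 and 10.12 in KO (-0.13 ± 0.11, adjusted p = 0.488). Uqcrc1, a core protein, had the smallest difference of the 5, -0.00341 ± 0.12.

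Of 8 subunits of complex IV, cytochrome c oxidase, 2 fell and 6 did not pass, with a median of -0.06. Cox7a2, the form of subunit 7a found in most tissues, was at 12.30, 12.27 and 12.34 in WT and 11.80, 11.90 and 11.94 in KO, and all wild-type arrays were higher, by 0.42 ± 0.066 (adjusted p = 0.000344). Cox7a2l, its relative, gave 11.74, 11.88 and 11.58 in WT and 11.87, 11.77 and 11.84 in KO, overlapping (0.09 ± 0.082, adjusted p = 0.512). The difference between these relatives was not tested. Cox6c was at 14.94, 14.92 and 15.07 in WT and 14.71, 14.72 and 14.73 in KO, with the knockout arrays within a narrow band below the wild type (-0.26 ± 0.053, adjusted p = 0.00276). Cox6a1, the widely expressed form of subunit 6a, gave 12.99, 12.86 and 13.03 in WT and 12.72, 12.77 and 12.83 in KO, without overlap (-0.19 ± 0.066, adjusted p = 0.0608); it passed without WT B (-0.24, adjusted p = 0.0308). Cox6b1, the widely expressed form of subunit 6b, gave 14.35, 14.14 and 14.48 in WT and 14.43, 14.36 and 14.46 in KO (0.09 ± 0.074, adjusted p = 0.481). Cox5a was at 14.79, 14.90 and 15.06 in WT and 14.72, 14.66 and 14.86 in KO (-0.17 ± 0.072, adjusted p = 0.120), and passed without WT A (-0.24, adjusted p = 0.0391) and under median scaling (-0.28, adjusted p = 0.0153). Cox5b and Cox7b, also structural subunits, differed by 0.11 ± 0.093 and 0.04 ± 0.095.

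The 7 factors that assemble complex IV held both the largest rise of the set and a called fall. Cox20, a chaperone of the mitochondrially encoded subunit 2, was at 10.52, 10.41 and 10.54 in WT and 11.31, 11.28 and 11.17 in KO. All knockout arrays were higher by more than the spread within either group (0.76 ± 0.077, adjusted p = 5.91e-06). Cox18, which helps to insert the same subunit into the membrane, gave 13.57, 13.77 and 13.52 in WT and 13.79, 13.82 and 13.73 in KO on its brighter probe, and only WT B reached the knockout values (0.16 ± 0.068, adjusted p = 0.117). Its other probe passed (0.27, adjusted p = 0.0152), and so did the brighter probe without WT B (0.24, adjusted p = 0.0192). Cox14, which supports synthesis of the mitochondrially encoded subunit 1, fell, from 13.89, 13.81 and 13.99 in WT to 13.44, 13.45 and 13.51 in KO (-0.43 ± 0.061, adjusted p = 0.000153). The groups were well apart. The factors for metal and heme insertion did not pass: Cox11, which delivers copper to subunit 1, was at 10.52, 10.52 and 10.59 in WT and 10.20, 10.40 and 10.46 in KO (-0.19 ± 0.086, adjusted p = 0.151). Cox17, a copper chaperone, gave 12.30, 12.27 and 12.46 in WT and 12.07, 12.29 and 12.40 in KO (-0.09 ± 0.088, adjusted p = 0.580). Cox19, a copper-handling protein, and Cox15, which takes part in heme A synthesis, differed by -0.12 ± 0.080 and 0.07 ± 0.087.

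**Figure D3:**
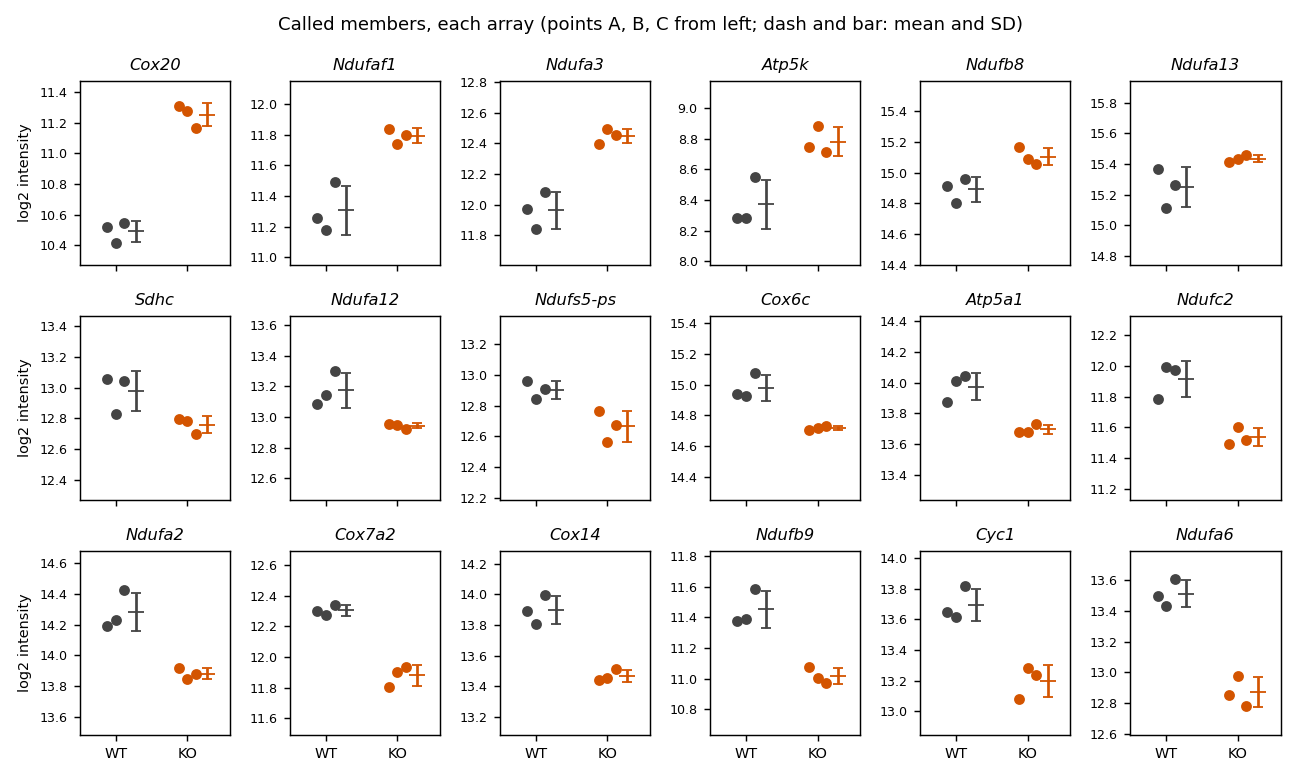
Log2 intensity in each array for the 18 called genes, 1 panel a gene, with WT on the left and KO on the right of each panel; points are arrays A, B and C from left to right, the dash is the group mean and the bar the SD, and each axis spans the same range around the gene's own mean. Groups do not overlap in any panel, and Cox20 and Ndufa6 show the widest gaps.

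ATP synthase was represented by 11 genes, of which 1 rose, 1 fell and 9 did not pass, with a median of 0.07. Atp5a1, the alpha subunit of the catalytic head, was at 13.87, 14.01 and 14.04 in WT and 13.68, 13.68 and 13.73 in KO, and fell by 0.28 ± 0.059 (adjusted p = 0.00357). Its dim second probe gave the same size without passing (-0.28, adjusted p = 0.085). Atp5c1, the gamma subunit of the rotating stalk, was at 15.26, 14.96 and 15.21 in WT and 15.23, 15.36 and 15.17 in KO, and only WT B stood apart (0.11 ± 0.073, adjusted p = 0.366). Atp5d and Atp5e, the other stalk subunits of the rotor, differed by -0.00117 ± 0.091 and 0.07 ± 0.10.

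The subunits at the membrane and the dimer interface differed in sign. Atp5k, subunit e, was at 8.28, 8.28 and 8.55 in WT and 8.74, 8.89 and 8.71 in KO and rose 1.33-fold (0.41 ± 0.10, adjusted p = 0.0124). WT C came near the lowest knockout array, and the call was lost without WT A, WT B or KO B (adjusted p 0.0514 to 0.0677). Atp5l, subunit g, the partner of subunit e, gave 10.39, 10.57 and 10.53 in WT and 10.33, 10.37 and 10.21 in KO, lower without overlap but not past the threshold (-0.19 ± 0.084, adjusted p = 0.135). Atp5j2, subunit f, gave 14.69, 14.64 and 14.71 in WT and 14.85, 14.92 and 14.75 in KO, higher without overlap (0.16 ± 0.055, adjusted p = 0.0609), and passed without KO C (0.20, adjusted p = 0.0312). Atp5md and Atp5mpl, small proteins associated with the membrane part, differed by 0.21 ± 0.10 and 0.05 ± 0.13. In the peripheral stalk, Atp5pb, subunit b, differed by -0.11 ± 0.082. Atp5o, also a member of the set, encodes OSCP, the stalk subunit to which cyclophilin D binds, and its values in each array are given for that reason. Its probe was dim, at 7.70, 7.50 and 7.35 in WT and 7.68, 7.62 and 7.75 in KO, and the groups overlapped (0.16 ± 0.11, adjusted p = 0.395).

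WT C stood apart from the other wild-type arrays over the set. It was the highest wild-type array for 41 of the 61 genes, WT A for 9 and WT B for 11. The median deviation of the 61 from each gene's mean over the 6 arrays was 0.109 in WT C, -0.0252 in WT A and -0.0173 in WT B, whereas the same medians over all named genes were 0.0139, -0.00632 and -0.0106. In the knockout, the medians lay between -0.015 and -0.00809. The WT SD exceeded the KO SD for 46 genes (75.4%, against 59% of all named genes and 59.4% of the bright ones), with median SDs of 0.129 in WT and 0.0796 in KO over the set. Without WT C there were 18 calls, 8 higher and 10 lower, 16 of them shared with the calls from all arrays, and the median difference of the set was 0.044. Without WT A there were 16, 5 higher and 11 lower, and the median was -0.106. The sign of the set's median therefore depended on which wild-type array was included, and it is read here as neither up nor down. The part of this array in single results was not tested beyond the values given.

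**Figure D4:**
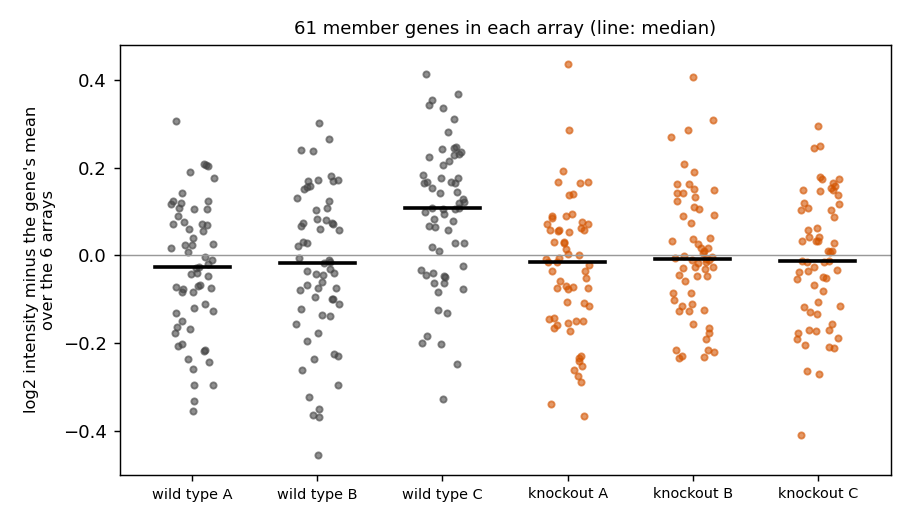
Log2 intensity of each of the 61 genes minus its mean over the 6 arrays, by array; each point is a gene and the line is the median. The genes of WT C sit higher than those of WT A and B, in 41 of 61 cases as the highest of the 3.

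With all arrays and quantile normalization 33.3% of the called genes were higher. With cyclic loess in place of quantile normalization, 17 genes passed, 6 higher and 11 lower (35.3% higher). With arrays scaled only to the same median, 21 genes passed, 4 higher and 17 lower, so that 19% were higher, and the median of the set was -0.0424 against -0.0128 over all probes. That scaling added falls of Cox5a, Cox6a1, Ndufaf4, Sdhb and Uqcr10 and removed the rises of Ndufa13 and Ndufb8. The genes called in all 18 alternative settings tried were Cox20, Ndufaf1 and Ndufa3, higher, and Ndufa6, Cyc1, Ndufb9, Cox14, Cox7a2 and Ndufa2, lower, 9 of the 18. These include assembly factors of complexes I and IV and subunits of complexes I, III and IV, and no gene of complex II or ATP synthase.

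Genes connected with the chain but outside the naming rule were counted on separate lists. Of the assembly and biogenesis factors, 24 of 39 had a named probe; 3 rose, 6 fell and 15 did not pass, with a median of -0.03. Ttc19, a factor of complex III, was at 9.49, 9.66 and 9.51 in WT and 8.52, 8.42 and 8.67 in KO and fell 2.02-fold (-1.02 ± 0.098, adjusted p = 3.55e-06), with -0.68 as the mean of its probes. Higd2a, a complex IV factor, was at 14.08, 14.19 and 14.19 in WT and 13.76, 13.95 and 13.75 in KO and fell by 0.34 ± 0.064 (adjusted p = 0.00167). Lrpprc, which stabilises mitochondrial messenger RNAs, was at 12.08, 12.16 and 12.17 in WT and 11.82, 11.67 and 11.95 in KO (-0.32 ± 0.078, adjusted p = 0.00952), and lost the call without KO B (adjusted p = 0.0561) and on its probe of highest variance (adjusted p = 0.0766). Sdhaf1, a complex II factor, did not pass (0.19 ± 0.084, adjusted p = 0.152), although it passed on another probe (0.31, adjusted p = 0.00848) and without WT C (0.25, adjusted p = 0.0424).

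Upstream of the chain, the citrate cycle and pyruvate entry list had 12 of 24 genes, of which 3 rose, 3 fell and 6 did not pass, with a median of 0.01. Pdk4, a kinase that inhibits pyruvate dehydrogenase, was at 8.54, 8.76 and 8.66 in WT and 11.52, 11.48 and 11.74 in KO, a 7.62-fold rise (2.93 ± 0.094, adjusted p = 4.40e-11). This exceeded the largest difference within the chain itself. Idh2, the NADP-dependent isocitrate dehydrogenase of mitochondria, went from 13.48, 13.49 and 13.45 in WT to 13.88, 14.03 and 14.00 in KO (0.50 ± 0.059, adjusted p = 2.57e-05). Pdha1, the target of the kinase, was at 13.87, 13.81 and 13.67 in WT and 13.60, 13.57 and 13.49 in KO (-0.23 ± 0.064, adjusted p = 0.0213), a fall not called without WT A, WT B, KO B or KO C (adjusted p 0.0586 to 0.0965). Idh3g, a subunit of the NAD-dependent enzyme, did not pass (-0.15 ± 0.062). The genes of its other subunits were called lower by limma. Idh3a differed by -0.29 ± 0.085 (adjusted p = 0.0241) and Idh3b by -0.19 ± 0.056 (adjusted p = 0.0257).

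The list of other electron entry and ubiquinone synthesis had 12 of 20 genes; 2 rose, 3 fell and 7 did not pass, with a median of 0.06. Coq2, the enzyme that joins the ring and tail of ubiquinone, was at 12.08, 12.06 and 12.21 in WT and 13.02, 12.99 and 13.06 in KO (0.91 ± 0.065, adjusted p = 1.71e-07), and its probe of highest variance gave 2.44. Prodh, proline dehydrogenase, was at 9.14, 8.97 and 9.21 in WT and 9.71, 9.85 and 9.62 in KO (0.62 ± 0.097, adjusted p = 0.000343; 0.41 as the mean of its probes). Etfdh, which passes electrons from fatty acid oxidation to ubiquinone, was at 11.30, 11.60 and 11.41 in WT and 11.02, 10.78 and 10.94 in KO and fell (-0.52 ± 0.092, adjusted p = 0.000951; -0.34 as the mean of its probes). Coq5 did not pass (0.20 ± 0.096). Carriers, channels and the inhibitor of ATP synthase gave 0 calls among 6 named genes of 13 by limma, with 2 at an unadjusted p under 0.05, beside the 58.2% of named genes; Atp5md and Atp5mpl, described above, are among the 6. Atpif1, the inhibitor, differed by 0.01 ± 0.062.

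Regulators of mitochondrial biogenesis and mitochondrial DNA gave 0 calls among 11 named genes of 21 by limma, with 2 at an unadjusted p under 0.05, beside the 58.2% of named genes, and a median of 0.05. The brightest, Ssbp1, which binds single-stranded mitochondrial DNA, was at 12.64, 12.56 and 12.42 in WT and 12.81, 12.59 and 12.66 in KO (0.15 ± 0.077, adjusted p = 0.231). In glycolysis and lactate, 12 of 21 genes were named; 2 rose, 3 fell and 7 did not pass, with a median of -0.07. Pkm, pyruvate kinase, was at 15.12, 15.17 and 15.41 in WT and 14.83, 14.89 and 14.89 in KO and fell (-0.36 ± 0.067, adjusted p = 0.00133). Aldoc, an aldolase, was at 7.81, 7.98 and 7.93 in WT and 7.30, 7.49 and 7.46 in KO (-0.49 ± 0.10, adjusted p = 0.00382). Tpi1, triose phosphate isomerase, was at 15.22, 15.15 and 15.23 in WT and 15.37, 15.43 and 15.38 in KO (0.19 ± 0.047, adjusted p = 0.00953), but median scaling (0.12, adjusted p = 0.146) and the mean of its probes (0.09, adjusted p = 0.315) ended that call. Gapdh differed by 0.17 ± 0.063 (adjusted p = 0.0776) and passed without WT C (0.23, adjusted p = 0.0144). Calls in glycolysis thus went both ways, and no list was tested as a list.

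**Figure D5:**
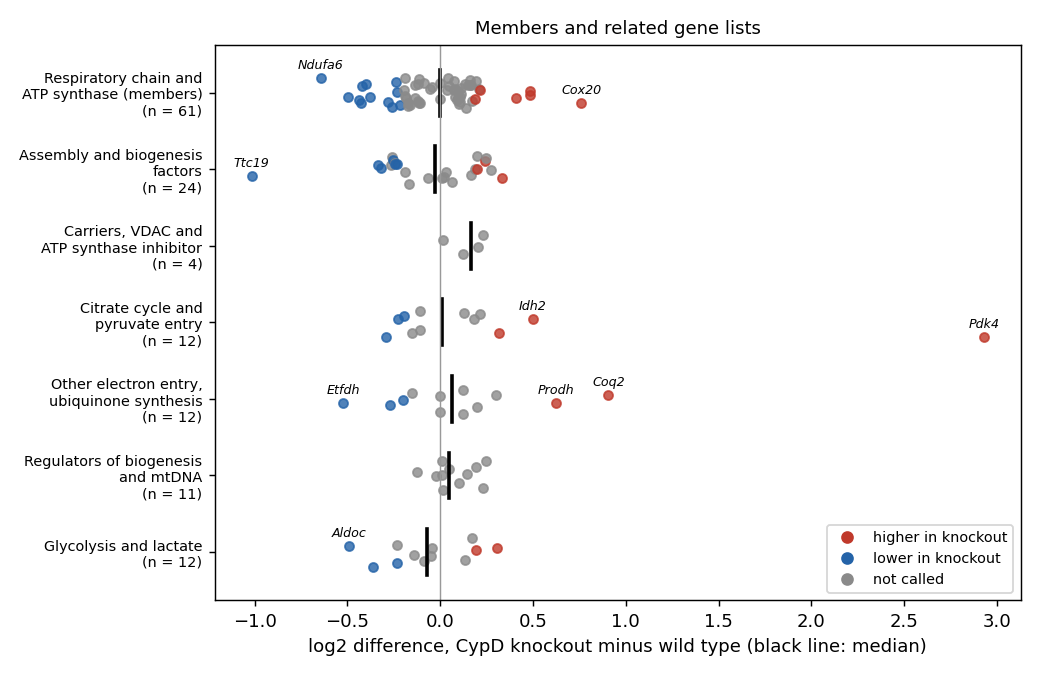
Log2 difference, CypD knockout minus wild type, of each gene in the 61-gene set and in the related lists, with the black line at each list's median and color marking genes called higher, lower or not called; Atp5md and Atp5mpl are plotted once, with the set. Pdk4 lies far to the right at 2.93 and Ttc19 is the lowest at -1.02, while the medians of all lists shown lie between -0.07 and 0.16.

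The symbols of 107 protein-coding mouse genes in RefSeq fit the rule, and 60 of them had a named probe; the pseudogene is the 61st member. The other 47, among them the catalytic beta subunit Atp5b, the c-ring genes Atp5g1, Atp5g2 and Atp5g3, Sdha, Uqcrfs1, both Cox4i forms and the other nuclear-encoded core subunits of complex I, were not analysed here.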

How the data were processed

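RNA from 3 wild-type and 3 CypD knockout fibroblast samples was measured on Illumina bead arrays. The authors deposited linear probe intensities for each array, with no detection p-values or control probes, per the file headers, and a processed intensity table of 12534 of 45281 probes. Per the submitters' processing notes, the software was BeadStudio 3.0. Gene symbols came from the platform annotation of the listed probes. Of these, 10653 had 1 symbol, 5 had several and 1876 had none, and names were updated through RefSeq (GRCm38.p6).

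With limma 3.58.1 in R 4.3.3, intensities were corrected with normexp (offset 50), log2-transformed and quantile-normalized. Probes above the 40th percentile of mean log2 intensity (27168) were fitted with lmFit and eBayes with an intensity trend. The offset compresses differences of dim probes. Two-sided p-values were adjusted by the Benjamini-Hochberg method over these probes, and a gene was called under 0.05. Errors are standard errors from limma, and the number of arrays limits the precision. The procedure was tested on simulated data. Alternatives covered background, offset, scaling, filter, variance prior, array weights, the replicate letter, the processed table, the probe chosen and each array left out.

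The members and gene lists were chosen with earlier results of these data known. Values in every array are given for the called members, the 4 of lowest p and the 2 brightest uncalled members of each class, and isoform pairs. From each other list, up to 3 called genes of lowest p and the brightest uncalled gene are named. Any further gene named was added after the values were seen. A motif match required identical letters.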

Additional observations from a re-analysis of the deposited data

How the results depend on the processing

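The count of called genes stayed within 1.5 times the 18 of the main setting in all 18 alternatives, from 12 without the variance trend (4 higher and 8 lower) to 21 with median scaling or the 70th-percentile filter (58 genes tested there). Without the trend Cox6c (adjusted p = 0.053), Ndufa12 (0.0975), Ndufa13 (0.202), Ndufb8 (0.117), Ndufs5-ps (0.0923) and Sdhc (0.145) were lost. Leaving out 1 array at a time gave 14 to 18 calls. Of the called genes, 9 lost the call in at least 1 alternative, and of the 43 others 10 gained one. The sign held in all alternatives for 51 of the 61 genes, and for every called gene. Changing the filter, the variance trend or the replicate block left the difference itself unchanged, so the sign could not turn there. The same holds for the probe chosen where a gene had only 1 probe. A replicate block on the letters gave 18 calls, 6 higher and 12 lower, 17 of them shared; Sdhc was lost (adjusted p = 0.0569) and Cox5a gained (0.0471). Arrays of the same letter correlated at 0.101, -0.0899 and 0.0753 in their deviations from the group means, so the letters were not taken to pair the arrays. Ppif was called in every alternative. With 3 arrays a group, differences near 0.2 on the log2 scale lay at the limit of the test.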
